A study of Homo sapiens with 12 samples.

Results

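The EGR, FOS and JUN genes encode transcription factors that cells switch on early after a growth signal. The account covers EGR1, EGR2, EGR3, FOS, FOSL1, FOSL2, JUN, JUNB and JUND, chosen by symbol, which are 9 of the 17520 genes in the deposited expression table. It also covers the N6-methyladenosine (m6A) sites listed inside these gene bodies on the gene strand, which are 57 of 63578 sites in the list for insulin with Torin1 and 121 of 96671 sites in the list for insulin alone. All samples came from HEK293E cells, a transformed line derived from human embryonic kidney, that were kept without serum overnight and then given 200 nM insulin for 30 h. The treated cells also received Torin1, which blocks the mTOR kinase, at 250 nM before the insulin, and the comparison cells were given insulin without Torin1. Poly(A) RNA of 3 replicates per condition was sequenced as input, and RNA of 3 replicates per condition went through miCLIP. In miCLIP an antibody against m6A is crosslinked to RNA and leaves substitutions in the reads at or beside methylated adenosines. Because every sample had insulin, the comparison shows what Torin1 changed in insulin-treated cells and not what insulin changed. The labels call the replicates biological without saying whether cultures were separate. The p-values therefore speak only of the spread among these samples, which may be technical.

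EGR proteins are zinc finger transcription factors that bind GC-rich DNA. FOS and JUN proteins carry leucine zippers and bind DNA as pairs, known as AP-1, and JUN proteins can pair with themselves while FOS proteins need a partner. Growth factors induce most of these genes within minutes through ERK kinases and the factor SRF, which binds a promoter element called the CArG box, and many of their mRNAs are short-lived.

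All 9 genes had lower mRNA in the Torin1 libraries than in the insulin libraries. The Torin1 means of EGR3, FOS, EGR1 and JUNB were 1.86% to 9.62% of their insulin means, while that of JUN was 53.2% and that of FOSL2 74.0%. Every gene passed the test across all genes (limma on log2(value + 1), Benjamini-Hochberg adjusted p below 0.05), where 42.5% of the 13842 tested genes were called lower and 43.4% higher, or 86.0% either way. A change beyond 1.5-fold was called lower for 8 of the 9, all but FOSL2, against 22.5% of tested genes. In all 9 genes every Torin1 library lay below every insulin library, which was so for 42.8% of tested genes, and the groups did not overlap in either direction for 86.3%. In bulk RNA, fewer cells expressing a gene and less of its RNA per cell cannot be told apart.

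**Figure D1:**
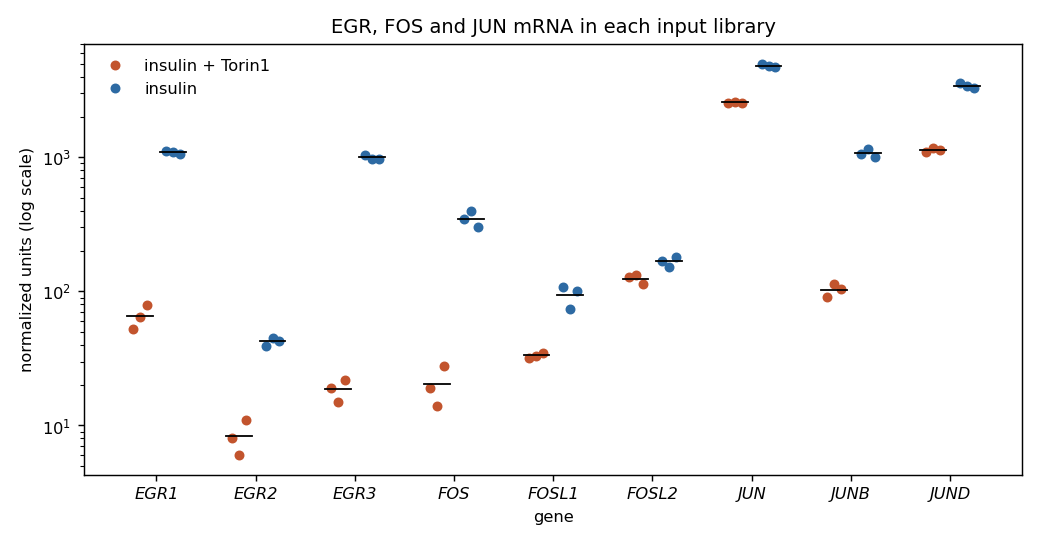
Normalized mRNA level (vertical axis, log scale) of each gene (horizontal axis) in the 3 insulin + Torin1 libraries and the 3 insulin libraries; each point is a library and each bar the group mean. The Torin1 points lie below the insulin points in all 9 genes, with the widest gap in EGR3 and the narrowest in FOSL2.

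Values are given in the authors' normalized units, and a log2 fold change compares the Torin1 with the insulin libraries on the log2(value + 1) scale, where the change of a gene with low values comes out too small. EGR3 had 19, 15 and 22 units in the Torin1 libraries and 1049, 980 and 977 units in the insulin libraries. The groups were far apart, and the Torin1 mean was 1.86% of the insulin mean. The log2 fold change of EGR3 was -5.69 ± 0.12 (SE, limma adjusted p = 1.9e-21), the 12th lowest of all tested genes. EGR3 lies on chromosome 8, and its body overlaps that of LOC107986924, so reads from the overlap cannot be told apart without knowing how strand was used in counting.

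EGR1, the family member most often used as a marker of growth factor signalling, had 52, 64 and 79 units in the Torin1 libraries and 1124, 1099 and 1062 units in the insulin libraries. The insulin libraries agreed closely and the Torin1 libraries spread more in relative terms, at 65.0 ± 13.5 units against 1095 ± 31.2 units (SD, n = 3 each). The log2 fold change of EGR1 was -4.07 ± 0.11 (SE, limma adjusted p = 4.5e-20). EGR2, known for its role in the myelin-forming cells of nerves, was scarce, with 8, 6 and 11 units in the Torin1 libraries and 39, 45 and 43 units in the insulin libraries. Its groups did not overlap, and its log2 fold change was -2.25 ± 0.28 (SE, limma adjusted p = 1e-07). All 9 genes passed the filter of 10 units in at least 3 libraries, and EGR2 passed it mainly through the insulin libraries, with 1 Torin1 library above 10. Where the worth of a read could be worked out, the EGR2 value of Torin1 replicate 3 stood for about 8 reads and that of insulin replicate 1 for about 23, so EGR2 has the widest interval of the 9 genes, from -2.83 to -1.67 (95%).

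The promoters of EGR1 and EGR2 are shown because these genes fell together and because 1 window of each holds the element that SRF binds. Windows run from 250 bases before to 50 bases after an annotated start and read 5′ to 3′ on the gene strand (RefSeq, GRCh38.p14). Capitals mark CArG boxes, and in EGR1 also a match to GCGNGGGCG, a looser form of the sequence that EGR proteins bind.
EGR1, chr5:138465229-138465528, plus strand: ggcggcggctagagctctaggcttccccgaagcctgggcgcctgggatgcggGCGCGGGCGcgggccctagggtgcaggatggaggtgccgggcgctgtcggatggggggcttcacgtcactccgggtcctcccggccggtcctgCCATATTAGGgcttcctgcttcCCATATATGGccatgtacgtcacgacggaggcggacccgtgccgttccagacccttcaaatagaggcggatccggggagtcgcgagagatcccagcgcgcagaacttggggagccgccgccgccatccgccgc
EGR2, chr10:62816317-62816616, minus strand: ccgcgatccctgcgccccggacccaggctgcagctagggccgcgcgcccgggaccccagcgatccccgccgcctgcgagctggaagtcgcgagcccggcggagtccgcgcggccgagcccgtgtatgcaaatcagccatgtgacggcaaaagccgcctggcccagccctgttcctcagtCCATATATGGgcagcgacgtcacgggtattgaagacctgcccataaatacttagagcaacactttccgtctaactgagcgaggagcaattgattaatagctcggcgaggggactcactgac

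The CArG boxes of EGR1 begin at -105 and -83 from the annotated start, and that of EGR2 at -71. On either strand a CArG box was found in 1.29% of 35116 promoter windows of 300 bases in the table, and GCGNGGGCG in 9.43%. Of the 9 genes, 7 had windows in the table, 9 windows in all, since EGR2 has 3. No CArG box was in the windows of FOS, FOSL2, JUN, JUNB or JUND, which says only that these letters are not in those 300 bases. EGR3 and FOSL1 are not shown.

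FOS, the founding AP-1 gene, had 19, 14 and 28 units in the Torin1 libraries and 346, 397 and 304 units in the insulin libraries. The lowest insulin library was still far above the highest Torin1 library. The log2 fold change of FOS was -4.08 ± 0.18 (SE, limma adjusted p = 1.1e-15), and the Torin1 mean was 5.83% of the insulin mean. FOSL1, which encodes FRA1, a FOS relative without the strong activation domain of FOS, had 32, 33 and 35 units in the Torin1 libraries and 107, 74 and 100 units in the insulin libraries. Insulin replicate 2 was the lowest insulin library yet stood above all Torin1 libraries, and the log2 fold change was -1.45 ± 0.18 (SE, limma adjusted p = 7.2e-08). FOSL2, which encodes FRA2, had 127, 132 and 113 units in the Torin1 libraries and 169, 153 and 181 units in the insulin libraries. Its groups were close without overlapping, and its log2 fold change of -0.43 (95% interval -0.66 to -0.20) was the smallest of the 9. FOSL2 was called lower at limma adjusted p = 0.001, and its test for a change beyond 1.5-fold had limma adjusted p = 1. Its body overlaps that of FOSL2-AS1.

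JUN, the usual partner of FOS, had 2564, 2601 and 2543 units in the Torin1 libraries and 5007, 4780 and 4695 units in the insulin libraries. Replicates lay close together in both groups, and JUN was lower with Torin1 by 0.91 on the log2 scale (95% interval of the fold change -0.98 to -0.84, limma adjusted p = 2.8e-17). JUNB, which can restrain JUN at some targets, had 91, 114 and 104 units in the Torin1 libraries and 1054, 1148 and 1011 units in the insulin libraries. The log2 fold change of JUNB was -3.37 ± 0.083 (SE, limma adjusted p = 1.5e-20). Its interval of -3.54 to -3.20 did not meet that of JUN, and the difference between the genes was not tested. JUND, the JUN gene known for steady expression in resting cells, had 1087, 1182 and 1130 units in the Torin1 libraries and 3597, 3419 and 3273 units in the insulin libraries. The Torin1 mean of JUND was 33.0% of the insulin mean, and the log2 fold change was -1.60 ± 0.042 (SE, limma adjusted p = 5.1e-20). The body of JUNB overlaps that of HOOK2.

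The JUN and JUND promoters are shown because their windows hold TGACNTCA, a form of the element that JUN-containing pairs and CREB family factors bind, here in capitals. The match begins at -67 from the annotated start in JUN and at -200 in JUND.
JUN, chr1:58783998-58784297, minus strand: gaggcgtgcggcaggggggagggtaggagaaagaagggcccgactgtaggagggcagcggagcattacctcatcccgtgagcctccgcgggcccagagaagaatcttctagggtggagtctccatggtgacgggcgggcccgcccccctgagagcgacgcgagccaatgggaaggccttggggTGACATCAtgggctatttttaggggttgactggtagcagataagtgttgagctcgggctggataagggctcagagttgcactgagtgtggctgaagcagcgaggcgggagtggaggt
JUND, chr19:18281573-18281872, minus strand: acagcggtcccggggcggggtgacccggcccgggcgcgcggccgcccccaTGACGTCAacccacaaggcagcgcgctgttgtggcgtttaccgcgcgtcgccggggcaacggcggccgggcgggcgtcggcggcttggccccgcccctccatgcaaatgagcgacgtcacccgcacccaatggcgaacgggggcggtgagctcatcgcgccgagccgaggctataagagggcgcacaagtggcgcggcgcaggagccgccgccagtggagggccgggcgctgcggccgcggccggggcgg

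TGACNTCA was found on either strand in 7.72% of the promoter windows. The shorter AP-1 element TGANTCA was in 7.71% of windows and, among the genes here, in that of FOSL2 alone, as TGACTCA at 5 bases after the start. No capitalised matches overlapped one another. A match is a description of the letters and not evidence of binding.

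The median log2 fold change of the 9 genes was -2.25, beside 0.02 over all 13842 tested genes. Of the 9, 7 were below -1.38, the 10th percentile of tested genes. The 9 genes were named with earlier results of these data known, so their place among all genes is a description.

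**Figure D2:**
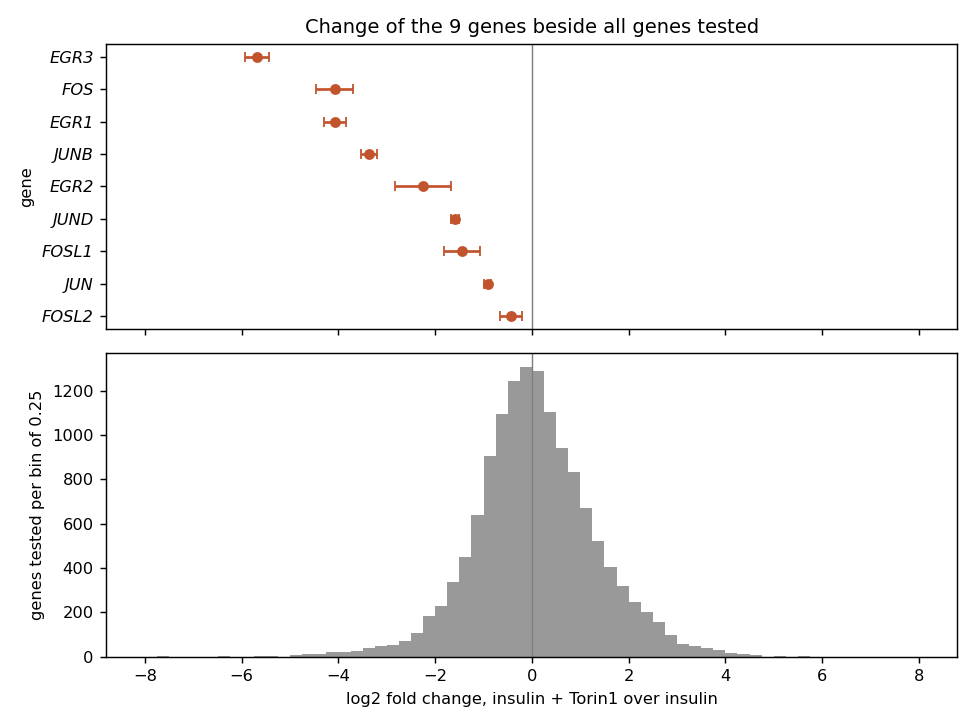
Top, log2 fold change of the 9 genes, insulin + Torin1 over insulin, with 95% intervals from limma, 3 libraries a group; bottom, the number of tested genes per bin of 0.25 on the same axis. The 9 genes lie between -5.69 and -0.43, and the histogram peaks close to 0.

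The totals of the 6 input libraries were 11418114 to 11438881 normalized units with Torin1 and 12424643 to 12528454 with insulin alone, so the authors' normalization did not set totals equal. With totals made equal the median over all genes was 0.12 higher on the log2 scale, and all 9 genes were still called lower with it. Read depth could be recovered for 3 libraries, at 8.2 M reads in Torin1 replicate 3 and 7.32 M and 9.09 M reads in insulin replicates 1 and 2. Of 6 markers named for the HEK293 line, VIM, KRT8, KRT18 and NEFM passed the filter on low values (the first 3 higher with Torin1, NEFM lower), PAX2 had 6 to 11 units with either treatment, and NEFL was not analysed here. The summed blood cell markers were at 1 to 12 units with Torin1 and 109 to 124 with insulin, mostly CD14 and HBA1, with PTPRC at 0 or 1. The summed fibroblast and endothelial markers were at 524 to 546 units with Torin1 and 190 to 243 with insulin, mostly COL1A1, with DCN and CDH5 near 0. The hepatocyte markers ALB and APOA1 summed to 8 to 14 units with either treatment. The part of these shifts in the results was not tested.

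Most tested genes whose products pair with FOS and JUN proteins fell. Of 11 tested AP-1 partner genes, 9 were called lower and 0 higher, beside 42.5% and 43.4% of all tested genes, and the list's median log2 fold change was -1.30. FOSB, the fourth FOS gene, had 38, 29 and 43 units with Torin1 and 395, 405 and 332 units with insulin, a log2 fold change of -3.34. BATF2 and BATF3, at 0.32 and -0.12, did not pass the test (limma adjusted p = 0.33 and 0.55), and BATF, at 0 to 2 units, was not tested.

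Around the EGR genes the picture was split. NAB2, an EGR corepressor that EGR proteins themselves induce, averaged 130 ± 8.54 units with Torin1 and 265 ± 13.6 units with insulin (SD, n = 3 each). Its log2 fold change was -1.02. The related corepressor gene NAB1 averaged 1154 ± 40.9 units with Torin1 and 751 ± 37.8 units with insulin (SD, n = 3 each) and rose, at 0.62. EGR4 had 1, 0 and 0 units with Torin1 and 10, 25 and 24 with insulin and was called lower. It passed the filter on low values through the insulin libraries alone, and with any of these left out it was not tested. WT1, a zinc finger gene related to the EGR family, rose at 1.05 from low values. NAB1 and WT1 were called higher, but not beyond 1.5-fold (limma adjusted p = 0.45 and 0.076).

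Upstream, 5 of 7 genes (SRF, its ELK and MKL cofactors and CREB1) were called lower and 2 higher. The 42.5% and 43.4% of all tested genes stand beside this and each other list here. ELK4, which encodes a partner that recruits ERK signals to SRF, had the largest fall at -1.40, and SRF was at -0.98. ELK3, whose product can repress the same promoters, had the largest rise, at 1.09, with CREB1 at 1.08. Among RAS, RAF, MEK, ERK and RSK genes, 10 of 15 were called lower and 3 higher. MAP2K1, which encodes the kinase MEK1, had the largest fall, at -1.26. In the JNK branch, which leads to the kinases that phosphorylate JUN, 3 of 6 genes were called lower and 3 higher. This split was close to that of all tested genes. MAP2K7 was at -1.24, MAPK9 at -0.79 and MAPK8 at -0.23, while MAP2K4 was at 0.34, the scaffold gene MAPK8IP3 at 0.62 and MAPK10 at 2.01, the last with 67.3 ± 9.02 units with Torin1 and 16.3 ± 4.62 with insulin (n = 3 each, SD). With scaling to equal totals MAPK8 was at -0.10 and not called (limma adjusted p = 0.064), and with quantile normalization at -0.08 and not called (0.14).

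**Figure D3:**
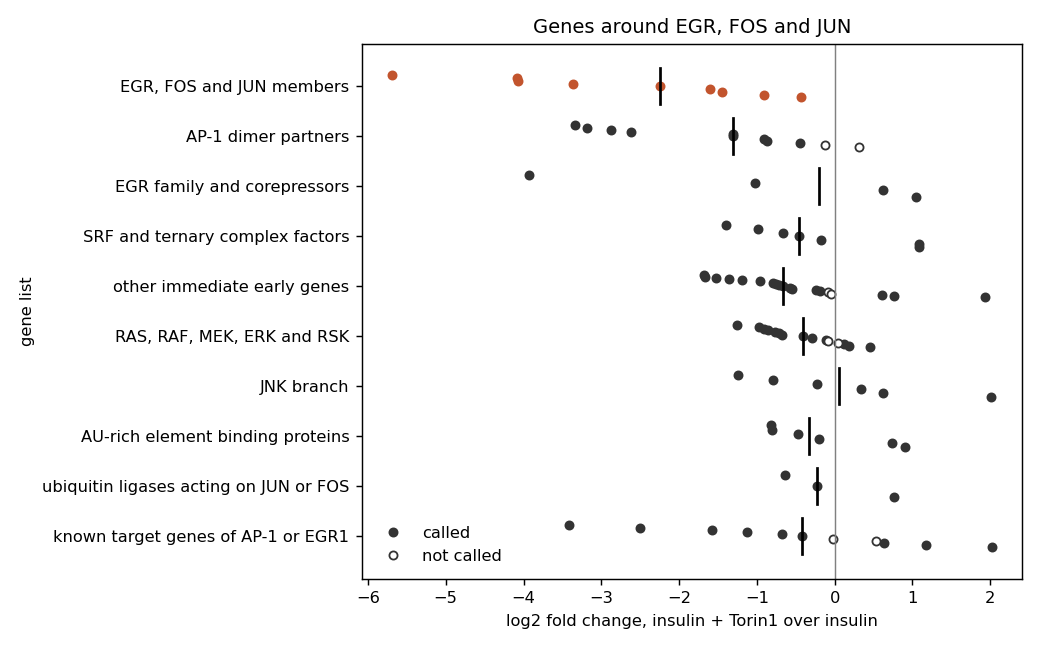
Log2 fold change, insulin + Torin1 over insulin, of each tested gene in 10 lists (rows); filled points passed the limma test at adjusted p below 0.05, open points did not, and the vertical bar is the list's median. The EGR, FOS and JUN genes and the AP-1 partners have medians of -2.25 and -1.30, and the medians of the other lists lie between -0.66 and 0.06.

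Of 19 other immediate early genes, 14 were called lower and 3 higher, beside 42.5% and 43.4% of all tested genes, with a median of -0.66. NR4A3, an orphan nuclear receptor gene, had the largest fall at -1.68. MYC rose, with 1293, 1249 and 1333 units with Torin1 and 363, 295 and 358 with insulin. Its log2 fold change was 1.93. The AU-rich element binding proteins, some of which control the decay of FOS and JUN mRNA, did not move one way. ELAVL1, whose product stabilises such mRNAs, was at -0.82, and KHSRP, ZFP36L1 and ZFP36L2, whose products promote decay, were at -0.47, -0.20 and -0.80. HNRNPD was at 0.74 and TIA1 at 0.91. All 6 were called, although ZFP36L1 was at -0.07 and not called with scaling to equal totals (limma adjusted p = 0.19). ZFP36, of the same family as ZFP36L1 but counted with the immediate early genes, was called lower at -1.52. Of the ubiquitin ligase genes, FBXW7 rose at 0.76, RFWD2 fell at -0.64, and ITCH was at -0.23, but at 0.02 and not called with quantile normalization.

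Known target genes of AP-1 or EGR1 did not follow as a group. Of 11 tested, 6 were called lower and 3 higher, with a median of -0.42, and 4 of the 15 listed were too low to test. HMOX1, which encodes heme oxygenase, had the largest fall, with 41, 58 and 39 units with Torin1 and 550, 488 and 451 with insulin. Its log2 fold change was -3.42. TIMP1, a metalloproteinase inhibitor gene, had the largest rise, with 957, 936 and 921 units with Torin1 and 232, 223 and 234 with insulin. Its log2 fold change was 2.03. Over the 9 lists together, 55 of 82 tested genes were called lower and 19 higher, beside 42.5% and 43.4% of all tested genes. With totals made equal, 49 list genes were called lower and 20 higher. Over all tested genes 5281 were then called lower and 6681 higher, against 5888 and 6010 without this scaling.

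The genes whose profile over the 6 libraries lay nearest to EGR1, by Euclidean distance of log2 values from the insulin mean among genes averaging at least 100 units, were ACTA1, which encodes skeletal muscle actin (distance 0.339), and RELB, an NF-kappaB subunit gene (0.516). ACTA1 had 10, 13 and 15 units with Torin1 and 206, 234 and 181 with insulin. Nearest to FOS were FTCD, a folate enzyme gene (0.255), and CMYA5, a muscle protein gene (0.39). Nearest to JUN were CCAR2 (0.0517) and FAM105B (0.0521), both at -0.90. With 3 libraries a group, likeness here is mainly likeness in the size of the difference between the groups.

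The m6A lists show fewer sites in most of these genes with Torin1. The 9 genes held 57 sites in the Torin1 list, or 0.0897% of it (Wilson 95% interval 0.0692% to 0.116%), and 121 in the insulin list, or 0.125% (0.105% to 0.150%). Of the 9, 7 had fewer sites with Torin1, FOSL1 had 1 in each list and FOSL2 had more. Among 9254 protein-coding genes with a strand and a site in either list, 59.2% had fewer sites with Torin1. With 1 list per condition, and 1 replicate named for each position, site numbers could not be tested over replicates. Of the sites, 52 of 57 with Torin1 and 96 of 121 with insulin were listed under replicate 1. Without replicate 1 the numbers were 5 and 25. The whole Torin1 list had 56298, 1552 and 5728 sites under replicates 1, 2 and 3, and the insulin list 50656, 39670 and 6345. The insulin list was thus larger mainly under replicate 2, and smaller under replicate 1. The list shares and the 59.2% were not adjusted for this. Intervals on sites and reads cover counting error only.

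**Figure D4:**
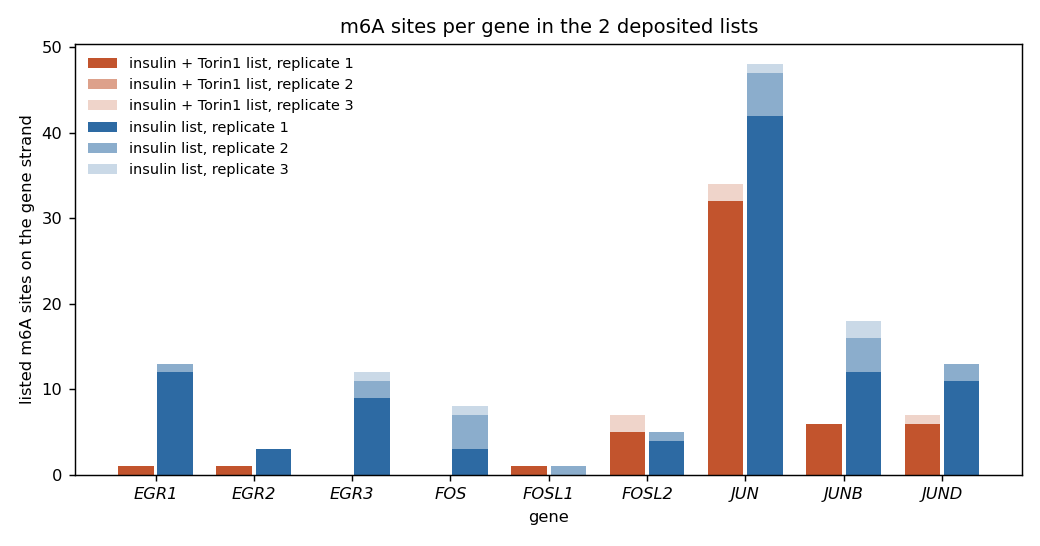
Number of listed m6A sites on the gene strand (vertical axis) for each gene (horizontal axis) in the insulin + Torin1 list and the insulin list, with shades for the replicate a site is listed under. JUN has the most sites in both lists, 34 with Torin1 and 48 with insulin, and EGR3 and FOS have none in the Torin1 list.

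Relative to the insulin number, site numbers were lowest in EGR1, EGR3 and FOS, which also had the 3 lowest fold changes in mRNA. EGR1 had 1 site with Torin1 and 13 with insulin, EGR3 had 0 and 12, and FOS had 0 and 8. Of 2925 genes with at least 8 insulin sites, 1.40% had none in the Torin1 list and 3.25% had no more than 10% of their insulin number. JUNB had 6 sites with Torin1 and 18 with insulin. JUND, whose mRNA changed less, had 7 with Torin1 and 13 with insulin, and all 7 were also insulin sites. EGR2 had 1 and 3 sites, each covered by 1 or 2 reads. FOSL2, with the smallest change in mRNA, had 7 sites with Torin1 and 5 with insulin, of which 3 were shared. A site is called from reads, and at the insulin sites of EGR1, EGR3 and FOS the median number of reads was 11, 24.5 and 6. The part of the lower mRNA in the lower site numbers was not tested.

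JUN stood out for the number of its sites. It had 34 with Torin1 and 48 with insulin on a transcript of 3257 nt (chromosome 1, 58780791 to 58784047, minus strand), which is 10.4 and 14.7 sites per kb of gene body. Only 29 of 12616 protein-coding genes with a strand had more sites in the Torin1 list and 53 had more in the insulin list. The JUN sites had a median of 141.5 reads with Torin1 and 97 with insulin. Of them, 13 of 34 and 13 of 48 had 1 substituted read. The part of read depth in these ranks was not tested. JUN has no introns, so distance from the gene start is distance along the mRNA. Its sites ran from 555 to 2539 nt with Torin1 and from 146 to 2481 nt with insulin. With Torin1, 8 sites lay in the first part, 17 in the middle and 9 in the last when the gene is cut into 3 equal parts, and with insulin 16, 23 and 9. The last part held the same number in both lists, and the first and middle parts fewer with Torin1.

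The 5-mer around a site is shown with the methylated adenosine in capitals. Every site of these genes had g or a before the adenosine and c after it, the form that the m6A writer prefers. This form may have been a condition for listing a site, so it is not evidence for the sites. In JUN, sites beginning with ga were 7 of 34 with Torin1 and 15 of 48 with insulin, and those beginning with gg, the most favoured start, were 8 and 9. JUNB differed, with gg at 3 of 6 sites with Torin1 and 11 of 18 with insulin. Over all 9 genes the gg start made up 31.6% of sites with Torin1 and 30.6% with insulin, beside 32.9% and 31.5% of the whole lists.

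The JUN site with the most substituted reads in the Torin1 list was a gaAct at chromosome 1, 58781773, where 9 of 377 reads were substituted. That of the insulin list was a ggAcc at 58781764, with 14 of 275 reads. The ggAcc was also in the Torin1 list, with 4 of 389 reads, or 1.03%, against 5.09% with insulin. Both lie in the last of the 3 parts, close enough to share reads.

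**Figure D5:**
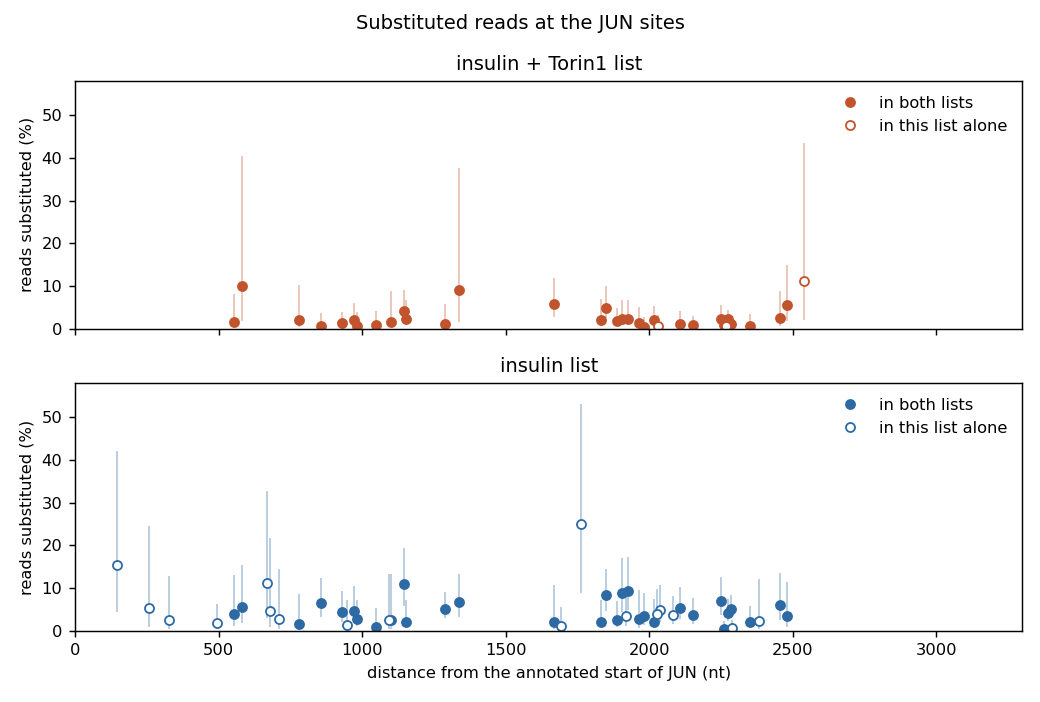
Share of reads substituted (vertical axis, percent, with Wilson 95% intervals) at each JUN site by distance from the annotated gene start (horizontal axis, nt), insulin + Torin1 list above and insulin list below; filled points are positions in both lists. Most points lie under 5% with Torin1, with a median of 1.84%, and the insulin median is 3.62%.

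At positions in both lists with at least 10 reads in each, 41 in these genes, the share of substituted reads was lower with Torin1 at 32. Over all 16496 such positions in the lists it was lower at 69.8%, so the direction was common across the lists. Each listed site of these genes had at least 1 substituted read, so more reads at a position can go with a lower share. The Torin1 list had more reads at 29 of the 41 positions and at 12584 of all 16496. The part of read number in the direction was not tested. Among positions listed under replicate 1 in both lists the share was lower at 29 of 35 in these genes and at 71.8% of all. For JUN it was lower at 24 of 31 positions, with a median of 1.96% with Torin1 and 3.85% with insulin, beside 4.55% and 7.26% over all positions. JUN was read more deeply than most: at positions with 50 or more reads in each list, listed under replicate 1, its medians were 1.71% with Torin1 and 4.23% with insulin, beside 2.38% and 4.05% over all such positions. The 31 JUN positions share reads and are not independent. Fisher's exact test, two-sided and adjusted over all positions, called 39 positions lower and 1 higher, or 0.236% and 0.00606% of them. It compares the reads of the listed libraries and not the conditions.

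Of the 41 positions, 1 was called. It is a ggAct in JUND at chromosome 19, 18280365, 1258 nt from the gene start, where 8 of 227 reads, or 3.52%, were substituted with Torin1 and 34 of 184, or 18.5%, with insulin (Fisher's exact test, adjusted p = 0.0015). Both values are listed under replicate 1. Of the 6 JUND positions tested, all had a lower share with Torin1. A seventh shared position, 18280898, had too few reads for the test and went the other way, with 3 of 6 reads with Torin1 and 3 of 49 with insulin. The JUND site with the most substituted reads in the Torin1 list, a gaAct at 18280313, had 11 of 367 reads with Torin1 and 15 of 341 with insulin. No JUN position was called (smallest Fisher's exact adjusted p = 0.21). Of the 31 JUN positions, 6 had an unadjusted Fisher's exact p under 0.05, all lower with Torin1. Over all 16496 positions 1172 were lower and 57 higher at that limit. These were not matched for depth, and JUN was read more deeply than most. The part of read depth in the JUN number was not tested.

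Read numbers at shared positions can be set beside the mRNA levels. Over all shared positions the Torin1 list had a median of 1.67 times the reads of the insulin list. At the JUN positions this ratio was 1.32, at the 6 JUND positions 1.13 and at the 3 JUNB positions 0.223. EGR1 had 1 shared position with 10 or more reads in each list, while it had 13 insulin sites. That position had 11 reads with Torin1 and 29 with insulin, a ratio of 0.379, above that of JUNB. Positions absent from the Torin1 list, or with under 10 reads there, are left out. The ratios of genes with few Torin1 reads can therefore come out too high, and their order was not tested.

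In JUNB, at chromosome 19, 12792092, a ggAca 607 nt from the gene start had 26 of 63 reads substituted, or 41.3% (Wilson 95% interval 30.0% to 53.6%), and it was not in the Torin1 list. The JUNB site with the most substituted reads with Torin1, a ggAcc at 12792914, had 5 of 28 reads substituted with Torin1 and 15 of 74 with insulin. Of the 18 insulin sites of JUNB, 9 had at least 10% of reads substituted.

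Among the EGR genes, the site of EGR1 with the most substituted reads in the insulin list was a ggAca at chromosome 5, 138467140, with 8 of 73 reads, and it was not in the Torin1 list. The single EGR1 site with Torin1, a tgAca at 138467093, had 2 of 11 reads there and 2 of 29 with insulin. The EGR3 site with the most substituted reads had 13 of 59 reads with insulin, and all 12 EGR3 sites lay in the middle of the 3 equal parts of the gene body. Each EGR2 site had 1 substituted read, of 1 read with Torin1 and of 1 or 2 with insulin.

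Among the FOS genes, the FOS site with the most substituted reads was a tgAca at chromosome 14, 75281665, with 3 of 6 reads substituted with insulin, and 6 of the 8 FOS sites lay in the last of the 3 parts of the gene. In FOSL2 all sites of both lists lay in the last of the 3 parts of the gene body. Its sites with the most substituted reads were a taAcc at chromosome 2, 28412448, with 2 of 19 reads with Torin1, and a ggAca at 28412723, with 1 of 9 reads with Torin1 and 3 of 10 with insulin. FOSL1 had the same single site in both lists, at chromosome 11, 65892474, with 1 of 1 read in each. The strand of EGR3 and FOSL1 was taken from most of their sites, 12 of 12 and 2 of 3. The 2 FOSL1 sites are the same position in each list, beside 1 site on the plus strand. By position neither strand of FOSL1 had more.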

How the data were processed

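Per the submitters' processing notes, the tools were STAR, BWA 0.7.1, DESeq and DESeq2 1.22.2, with hg38 as the build; what each did is not given in the sources used here. The expression values were normalized between libraries and rounded by the authors before they were deposited, as gaps in the low values show, and were used as a score, not as counts, so a count test was not run. For each m6A site the authors deposited a fraction, the substituted reads over all reads, which matched the read numbers in the site names. Each site carries 1 replicate.

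Genes with at least 10 units in at least 3 of 6 libraries were tested with limma 3.58.1 (R 4.3.3) with a variance trend on log2(value + 1), adjusted over 13842 genes, and checked on simulated data. Positions in both lists were compared with scipy 1.17.1. Gene bodies and promoters came from RefSeq GRCh38.p14. Named were all 9 genes, the called list members with the largest rise and fall, all members of lists of 6 or fewer, the 2 nearest profiles to EGR1, FOS and JUN, and the site with most substituted reads per gene and list; a few others named were chosen after their values were seen. The result for 1 gene that this rule names is not reported here. The 9 genes and the lists were chosen with earlier results of these data known.

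No 2 libraries were identical. Insulin replicates 1 and 2 differed by 1.16 times what read sampling gives. Alternatives were other pseudocounts, filters, scalings, leaving out replicates, and other site rules.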

Additional observations from a re-analysis of the deposited data

How the results depend on the processing

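All 9 genes were called lower under every alternative run on the expression table, leaving out each library included. Beyond 1.5-fold, 8 were called lower under each of them except quantile normalization, with 7. The difference between the median of the 9 genes and that of all tested genes, -2.27 on the log2 scale, was -1.86 with a pseudocount of 5 and between -2.43 and -2.05 with a library left out. ITCH was at 0.02 with quantile normalization. Of 57 and 121 sites with Torin1 and with insulin, 30 and 72 had at least 2 substituted reads and 20 and 50 at least 3. Leaving out 1 replicate gave 5 to 57 sites with Torin1 and 25 to 116 with insulin. The single position called higher by Fisher's exact test became 4 with 5 reads as the minimum and 2 with 20. The replicate numbers did not pair the libraries (correlations of deviations from -0.023 to 0.010), and with the replicate block 5867 genes were called lower and 5983 higher, against 5888 and 6010, with all 9 genes called lower. No paired analysis was possible for the m6A lists because each position is listed under 1 replicate. Depth limits EGR2, FOSL1 and the sites of FOS, FOSL1 and EGR2.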
